A study of Capra hircus with 3 samples.

Results

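The enzymes of glycolysis and of the citric acid cycle were followed in goat skin under a short and a natural photoperiod. Probes were taken whose array description holds one of 15 enzyme names, and 13 of the 15008 probes on the array met this rule, spread over 17 spots and 11 sheep sequence records. Of the 15 names, 6 matched a probe and 9 matched 0, among them phosphofructokinase, triosephosphate isomerase, phosphoglycerate kinase and mutase, enolase, pyruvate dehydrogenase and citrate synthase. Another 11045 probes are described only as cDNA and 1089 as unknown, so an enzyme without a match may still have an unnamed probe. The 13 probes were divided by role into a glycolysis list of 9 probes, a citric acid cycle list of 1 probe, lactate dehydrogenase A at the pyruvate branch, and 2 transaldolase probes. Transaldolase was matched because its name contains the word aldolase, and it belongs to neither route. The probe of the cycle list is that of IDH1, described as the soluble, NADP+ dependent isocitrate dehydrogenase. This form of the enzyme works in the cytosol beside the cycle, so the mitochondrial cycle itself had 0 probes by the rule.

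All 6 goats were female Arbas Cashmere goats 2 years of age, a white cashmere breed, and side skin was taken from each. The 3 goats of the short photoperiod were let out during part of the day and otherwise kept in a dark shed at about 0.1 lux, while the 3 goats of the natural photoperiod, called long photoperiod in the sample titles, were left to graze under natural conditions. Each of the 3 two-colour Agilent sheep arrays held 1 goat of each group, and the goats on an array shared a parent. The short photoperiod sample carried Cy5 and the natural sample Cy3 on every array, and the dyes were swapped on 0 arrays, so a dye effect of a probe and an effect of the photoperiod cannot be told apart.

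Glycolysis splits glucose into pyruvate in the cytosol and yields ATP without oxygen. Pyruvate is then reduced to lactate by lactate dehydrogenase, or enters mitochondria, where the citric acid cycle oxidises its carbon. Skin is known as a tissue that turns much of its glucose into lactate, and the follicle epithelium does so strongly while hair is growing. Hexokinase phosphorylates glucose at the start of the pathway, GAPDH carries out the oxidation step, and pyruvate kinase forms pyruvate.

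The probe sequences show how little of each transcript a value rests on. Each probe is 60 bases long and was designed on a sheep record, and mismatches to goat transcripts were not analysed here. GAPDH, which served as the reference gene in the study's qPCR, is represented by 3 probes of the rule. A probe of another GAPDH record, U76740, whose description is spelled with a space and therefore missed the rule, was added after the values were seen. Both U94718 probes are printed with the 59 bases they share in capitals, since they differ by a shift of 1 base and still gave different ratios.
GAPDH U94718, probe from base 140: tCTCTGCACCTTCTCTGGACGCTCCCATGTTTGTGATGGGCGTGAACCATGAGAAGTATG
GAPDH U94718, probe from base 141: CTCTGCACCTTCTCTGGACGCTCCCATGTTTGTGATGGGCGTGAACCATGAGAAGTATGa
GAPDH NM_001190390, probe from base 940: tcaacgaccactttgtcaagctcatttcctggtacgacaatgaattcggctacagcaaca
GAPDH U76740, probe from base 187: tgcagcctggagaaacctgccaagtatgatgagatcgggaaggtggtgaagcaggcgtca
The U76740 probe shares at most 8 bases in a row with the U94718 probes and the NM_001190390 probe at most 5, so the 4 probes read 3 different stretches of GAPDH sequence.

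A second pair of shifted probes lies on the liver pyruvate kinase record DQ174126, and its probes took opposite signs. They are shown with their 59 shared bases in capitals.
Liver pyruvate kinase, probe from base 264: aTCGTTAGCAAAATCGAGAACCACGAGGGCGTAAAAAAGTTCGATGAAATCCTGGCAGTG
Liver pyruvate kinase, probe from base 265: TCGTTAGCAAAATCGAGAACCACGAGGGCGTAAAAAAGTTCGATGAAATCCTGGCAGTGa
The 2 hexokinase 1 probes lie on different records and share no such stretch.
Hexokinase 1 AM492192, probe from base 107: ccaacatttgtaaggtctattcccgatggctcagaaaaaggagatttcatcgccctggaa
Hexokinase 1 TC55766, probe from base 440: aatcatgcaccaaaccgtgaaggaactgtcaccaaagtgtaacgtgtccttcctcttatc

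Values are log2 ratios of the short over the natural photoperiod on each array after loess normalization, where 0 means equal signal, and log2 levels are those of each goat's own channel. The tests are those of limma over 14977 probes with Benjamini-Hochberg adjustment. None of the 13 enzyme probes passed an adjusted p of 0.05, their adjusted p-values ranging from 0.206 to 0.809, and 0 had a mean change of 2-fold. Over the whole array 0.00668% of the probes passed the adjusted p and 0.841% had a mean change of at least 2-fold. At an unadjusted p under 0.05, 1 enzyme probe was higher and 3 were lower under the short photoperiod, where 9.11% of all probes were higher and 9.35% were lower. The mean ratio was below 0 for 9 of the 13 probes, with a median of -0.09 against -0.01 over all tested probes. Of the 12 enzyme probes with a value on every array, 6 were below 0 on all 3 arrays and 1 was above 0 on all 3, while 22% and 21.6% of all such probes did so. Skin holds many cell types, and fewer cells of a type and less RNA per cell cannot be told apart in these values.

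**Figure D1:**
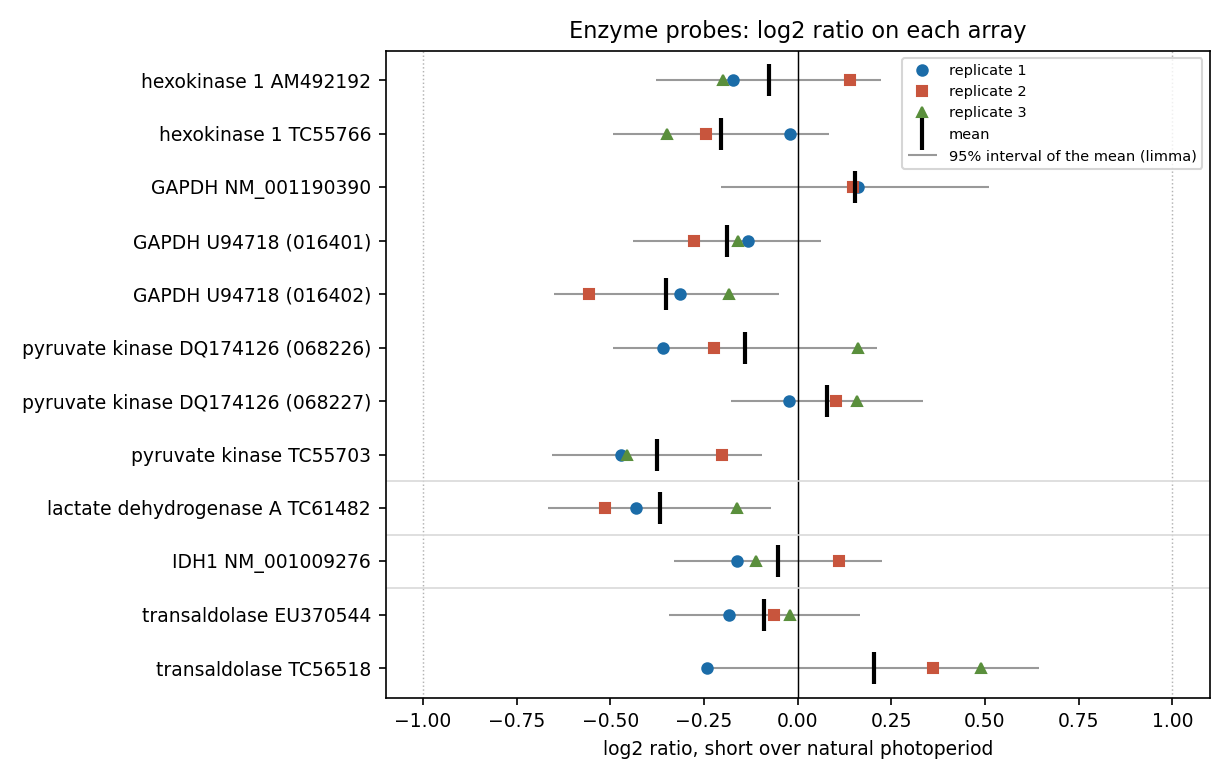
Log2 ratio of the short over the natural photoperiod (horizontal axis) for 12 enzyme probes (rows, in the order glycolysis, pyruvate branch, cycle list, transaldolase), with 1 coloured point per array, a bar at the mean and a line for limma's 95% interval. TC55703 pyruvate kinase is the lowest at -0.38, and 3 of the intervals drawn lie wholly below 0.

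Hexokinase, which phosphorylates glucose on entry, was measured by 2 probes of hexokinase 1. On TC55766 the log2 level was 14.22, 13.97 and 13.79 in the short photoperiod goats of replicates 1, 2 and 3, and 14.24, 14.21 and 14.14 in the natural goats. The short photoperiod goats were thus lower on each array, by little on replicate 1, and the groups overlapped. The mean log2 ratio was -0.20 ± 0.17 (SD, n = 3; limma adjusted p = 0.386). The AM492192 probe gave -0.17, 0.14 and -0.20 on the respective arrays, a mean of -0.08 ± 0.19 (limma adjusted p = 0.747). Both hexokinase probes had means below 0, TC55766 on all 3 arrays, and limma's 95% interval included 0 for both. When each array's median ratio was subtracted in place of loess (median centring), the mean of TC55766 was 0.026.

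GAPDH, which oxidises glyceraldehyde-3-phosphate, had no common direction over its probes. The U94718 probe from base 140 had log2 levels of 15.61, 15.79 and 15.81 under the short photoperiod and 15.92, 16.35 and 16.00 under the natural photoperiod. Every short photoperiod goat lay below every natural goat, as for 7.16% of all probes, and the mean ratio was -0.35 ± 0.19 (SD, n = 3; limma adjusted p = 0.230). The probe shifted by 1 base gave -0.13, -0.28 and -0.16 with a mean of -0.19 ± 0.08 (limma adjusted p = 0.365), and its groups overlapped. On NM_001190390 the ratios were 0.16 and 0.15 on replicates 1 and 2, where the spot of replicate 3 carried an outlier flag and was left out (limma adjusted p = 0.565 from 2 arrays). The U76740 probe gave -0.23, -0.01 and 0.22, a mean of -0.01 ± 0.23 (limma adjusted p = 0.982). Of the 4 GAPDH probes, 3 had means below 0 and 1 above, within a range of -0.35 to 0.15. These are among the brightest spots of the array, with mean log2 brightness from 15.7 to 15.9. After median centring the means of all 4 were above 0, from 0.50 to 0.94, with limma adjusted p-values between 0.0349 and 0.0618.

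Pyruvate kinase, which makes pyruvate and ATP in the last step, was read by TC55703, a record described by its bovine homologue, and by the liver record. On TC55703 the log2 level was 13.48, 13.92 and 13.88 in the short photoperiod goats and 13.95, 14.13 and 14.33 in the natural goats. All short photoperiod goats lay below all natural goats, though the nearest values of the groups, 13.92 and 13.95, almost met. The ratios were -0.47, -0.20 and -0.46, with a mean of -0.38 ± 0.15 (SD, n = 3) or 0.77-fold, a 95% interval of 0.63 to 0.94, and the lowest adjusted p of the 13 probes, 0.206 in limma. The mean was -0.17 after median centring. The liver pyruvate kinase probes had means of 0.08 ± 0.09 from base 264 and -0.14 ± 0.27 from base 265 (limma adjusted p = 0.696 and 0.608). These were dim spots, with mean log2 brightness of 7.59 and 7.54, and the groups overlapped for both.

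Lactate dehydrogenase A, which turns pyruvate into lactate and is the chain typical of glycolytic tissues, was measured by TC61482. Its log2 level was 14.50, 15.18 and 15.36 in the short photoperiod goats and 14.93, 15.69 and 15.52 in the natural goats. The short photoperiod goat was the lower on each array, while the levels differed between the arrays and the groups overlapped. The ratios of -0.43, -0.51 and -0.16 had a mean of -0.37 ± 0.18 (SD, n = 3), a 0.77-fold level with a 95% interval of 0.63 to 0.95, and a limma adjusted p of 0.223. After median centring in place of loess the mean was 0.21 (limma adjusted p = 0.397), so its direction depends on the correction for brightness.

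**Figure D2:**
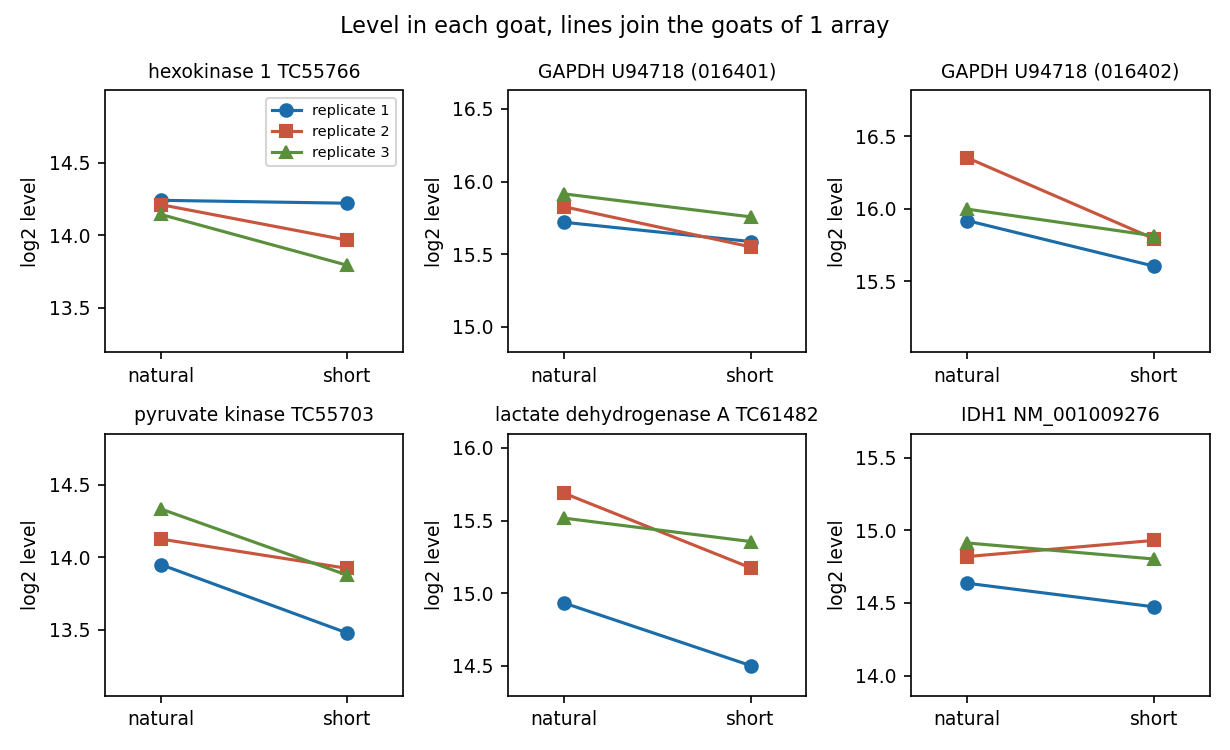
Log2 level in each goat (vertical axis, after loess and Aquantile normalization) under the natural and short photoperiod for 6 probes, with a line joining the goats of an array. The lines of TC55703 pyruvate kinase, lactate dehydrogenase A and of both U94718 GAPDH probes slope down on all 3 arrays, and those of IDH1 run both ways.

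IDH1, which makes NADPH from isocitrate in the cytosol, was the cycle list's probe. Its log2 level was 14.47, 14.93 and 14.80 in the short photoperiod goats and 14.64, 14.82 and 14.91 in the natural goats. The groups overlapped and the sign changed between arrays. The mean ratio was -0.05 ± 0.15 (SD, n = 3), with a 95% interval of -0.33 to 0.22 and a limma adjusted p of 0.809. After median centring the mean was 0.37 (limma adjusted p = 0.121).

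The routes were compared array by array. The median ratio of the glycolysis list was -0.13 on replicate 1, -0.20 on replicate 2 and -0.17 on replicate 3, from 9, 9 and 8 probes, and its mean over the arrays was -0.17 ± 0.03 (SD, n = 3). IDH1 had -0.16, 0.11 and -0.11. Glycolysis minus IDH1 was 0.03, -0.31 and -0.06, a mean of -0.11 ± 0.18. The difference changed sign between arrays and was smaller than its SD, and it sets 9 probes against 1. It was -0.016 without replicate 2 and -0.35 after median centring. No test was run, since 3 arrays cannot give a two-sided p under 0.25 in a sign test. Adding the 2 probes of succinate dehydrogenase subunit D to the cycle turned the mean difference to 0.14 ± 0.10.

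Outside the rule, cycle enzymes of the mitochondrion were on the array under other wording. Subunit D of succinate dehydrogenase, a membrane anchor of the enzyme that joins the cycle to the respiratory chain, had 2 probes. On the NM_001078653 probe the log2 level was 14.98, 14.89 and 14.84 in the short photoperiod goats and 15.23, 15.37 and 15.58 in the natural goats. All short photoperiod goats lay below all natural goats, and the mean ratio was -0.49 ± 0.24 (SD, n = 3; limma adjusted p = 0.191). The TC79139 probe gave -0.22, -0.28 and -0.42, a mean of -0.31 ± 0.10 (limma adjusted p = 0.228), again without overlap. After median centring in place of loess the means of both were above 0, at 0.07 and 0.11. All probes of like brightness then had medians of 0.63 and 0.31, respectively.

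Mitochondrial malate dehydrogenase, which closes the cycle by remaking oxaloacetate, is spelled "dehdrogenase" in its description and was added after the values were seen. Its 2 probes form another pair shifted by 1 base, shown with the shared 59 bases in capitals.
Malate dehydrogenase AF233351, probe from base 127: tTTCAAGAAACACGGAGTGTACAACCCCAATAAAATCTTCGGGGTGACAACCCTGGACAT
Malate dehydrogenase AF233351, probe from base 128: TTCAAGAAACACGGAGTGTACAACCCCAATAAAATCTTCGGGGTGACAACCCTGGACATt
The former probe gave ratios of 0.22, -0.02 and 0.42 with a mean of 0.21 ± 0.22, and the latter 0.09, -0.18 and 0.36 with a mean of 0.09 ± 0.27 (limma adjusted p = 0.426 and 0.737). Neither differed from 0 beyond the spread between arrays, and the groups overlapped. The measured enzymes of the mitochondrial cycle thus had means on both sides of 0. With malate dehydrogenase in the cycle list and the U76740 probe in the glycolysis list, glycolysis minus the cycle was -0.28 ± 0.22.

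The pairs of shifted probes show how closely probes of nearly the same sequence agreed. The probes of a pair lie on separate spots, and noise between spots was not separated from an effect of the shift. On the whole array 236 such pairs had values on every array, with a median absolute difference in mean ratio of 0.04, a 90th percentile of 0.17 and a maximum of 1.18. The probes of 22 pairs, or 9.32%, took opposite signs. The malate dehydrogenase pair differed by 0.11, the GAPDH pair by 0.16 and the liver pyruvate kinase pair by 0.22, and 19.1%, 10.6% and 5.08% of the pairs differed by more. The GAPDH difference was -0.18, -0.28 and -0.03 on the arrays, in the same direction each time. The median difference was 0.07 over the 84 pairs with a mean log2 brightness under 9 and 0.11 over the 19 pairs at 15 or above. The liver pyruvate kinase pair belongs to the former group, and the malate dehydrogenase and GAPDH pairs to the latter.

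**Figure D3:**
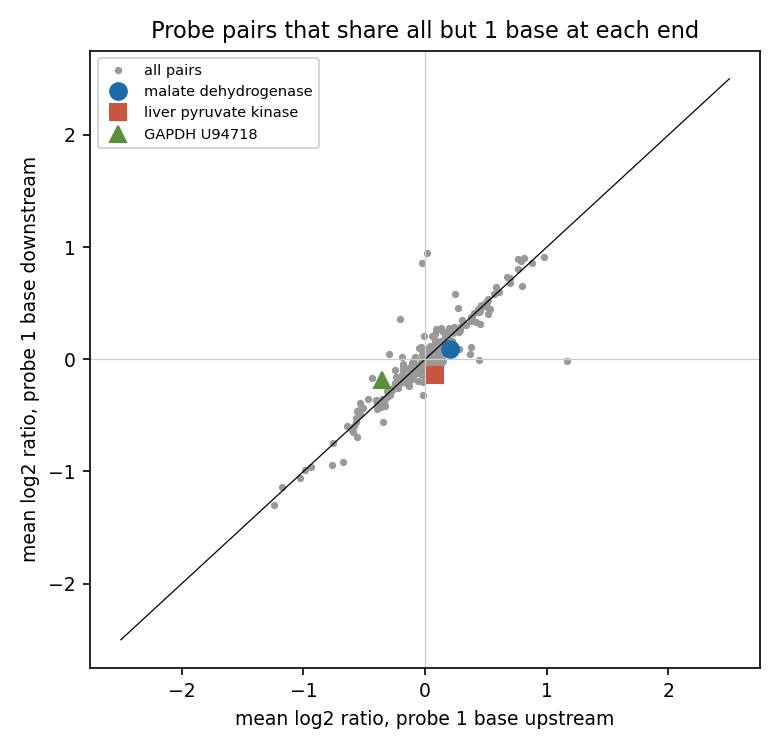
Mean log2 ratio of the probe lying 1 base upstream (horizontal axis) against that of its partner 1 base downstream (vertical axis) for 236 pairs that share 59 of 60 bases, with the line of equality. The 3 enzyme pairs differ by 0.11, 0.16 and 0.22. The median difference is 0.04 over all pairs and 0.11 over those with a mean log2 brightness of 15 or above. The latter include the malate dehydrogenase and GAPDH pairs. The liver pyruvate kinase pair at 0.08 and -0.14 falls where the signs are opposite.

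Brightness mattered for the direction of several enzymes, since the bright spots of these arrays had higher raw ratios. After median centring the median ratio of all probes was -0.57 at a mean log2 brightness between 6 and 7 and 0.63 between 15 and 16, whereas after loess the medians of the bins lay between -0.03 and 0.02. Of the 13 enzyme probes, 4 passed an adjusted p of 0.05 after median centring, when 12.6% of all probes did. These were GAPDH NM_001190390 at 0.94, transaldolase 1 at 0.76, the U94718 probe from base 141 at 0.59, and liver pyruvate kinase from base 265 at -0.52. The first 3 lay in the bin whose median was 0.63 and the last in the bin whose median was -0.36. Measured against its bin, lactate dehydrogenase A was -0.42 and TC55703 pyruvate kinase -0.28 under median centring, in the direction each had after loess. The succinate dehydrogenase D probes were -0.56 and -0.20, also in the direction they had after loess. The value against the bin took the sign opposite to that after loess for IDH1 at 0.065, transaldolase 1 at 0.12 and the U76740 GAPDH probe at 0.21. These 3 probes had a mean log2 brightness of 14.75, 15.92 and 15.94, in the upper part of their bins. The trend with brightness inside a bin was not removed from these values.

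**Figure D4:**
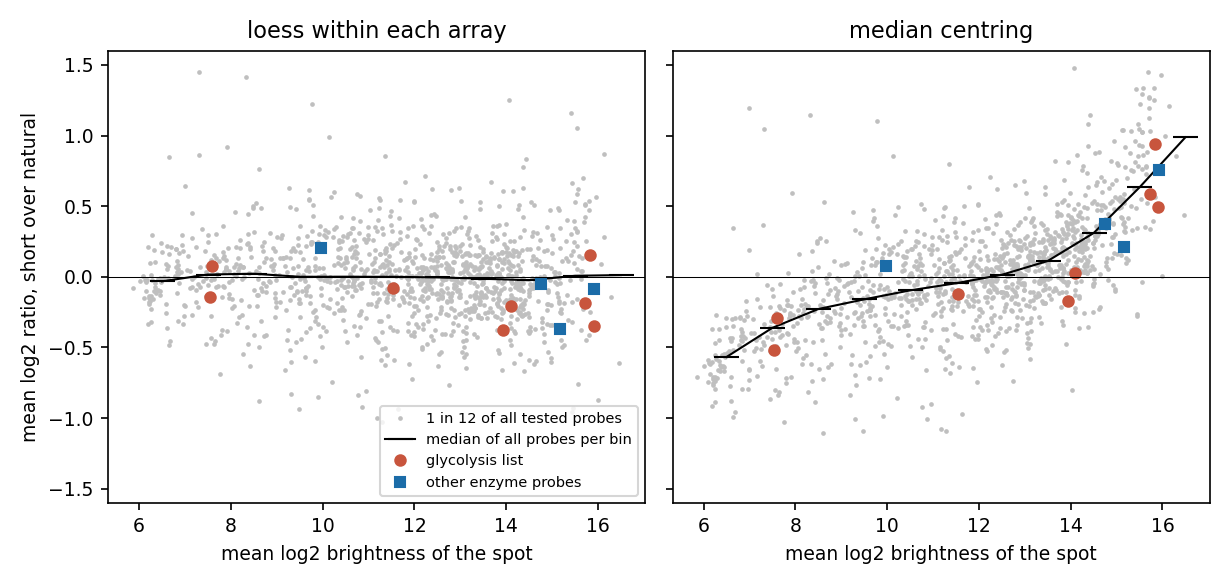
Mean log2 ratio (vertical axis) against mean log2 brightness of the spot (horizontal axis) after loess (left) and after median centring (right), with 1 in 12 of all tested probes in grey, the median of all probes in each bin as a line, and the enzyme probes in colour. The line is flat after loess and climbs from -0.57 to 0.99 after median centring, and the brightest enzyme probes follow it.

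The transaldolase probes gave no common direction. Transaldolase 1, which passes sugar units in the pentose phosphate pathway, had ratios of -0.18, -0.06 and -0.02 (mean -0.09 ± 0.08, limma adjusted p = 0.653). TC56518, described only by a bacterial homologue, had -0.24, 0.36 and 0.49 (mean 0.20 ± 0.39, limma adjusted p = 0.559).

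A wider list of 25 probes covered glucose and monocarboxylate transporters, mitochondrial pyruvate carriers, gluconeogenesis, the pentose phosphate pathway, malic enzyme, ATP citrate lyase, succinate dehydrogenase and hypoxia-inducible factors. None of them passed an adjusted p of 0.05, the lowest being 0.155. At an unadjusted p under 0.05, 1 was higher and 5 were lower, where 9.11% of all probes were higher and 9.35% were lower. The 5 lower probes include both probes of SLC2A3 and both of succinate dehydrogenase D, so they are fewer genes than probes. The means were above 0 for 13 and below 0 for 12, the lowest at -0.51, with a median of 0.01. Groups did not overlap for 6 probes, 5 of them lower under the short photoperiod, where 7.16% of all probes were lower and 6.44% higher without overlap.

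SLC2A3, the glucose transporter GLUT3, had 2 probes, one of them the lowest of this list. On this probe the log2 level was 13.23, 13.59 and 13.38 in the short photoperiod goats and 13.75, 14.04 and 13.95 in the natural goats. The groups did not overlap, and the ratios of -0.52, -0.45 and -0.56 were close to each other, with a mean of -0.51 ± 0.06 (SD, n = 3; limma adjusted p = 0.155). The other probe had a mean of -0.47 ± 0.08 (limma adjusted p = 0.162). The glucose transporters GLUT1, GLUT2 and GLUT8 had ratios of both signs on their arrays and means from -0.21 to 0.16.

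PGD, which makes NADPH in the pentose phosphate pathway, had means of 0.13 and -0.13 on its 2 probes, with ratios of both signs on the latter.

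HIF1A, the oxygen-regulated subunit of a factor known to raise transcription of glycolytic enzymes and glucose transporters, had means of 0.30 ± 0.21 and 0.29 ± 0.27 on its probes. The ratio was above 0 on all 3 arrays for both, and the groups overlapped (limma adjusted p = 0.281 and 0.330). ATP citrate lyase, which makes cytosolic acetyl-CoA from citrate and is named here after its values were seen, had -0.35, -0.24 and -0.40 without overlap of the groups (mean -0.33 ± 0.08, limma adjusted p = 0.211), and 0.11 after median centring.

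**Figure D5:**
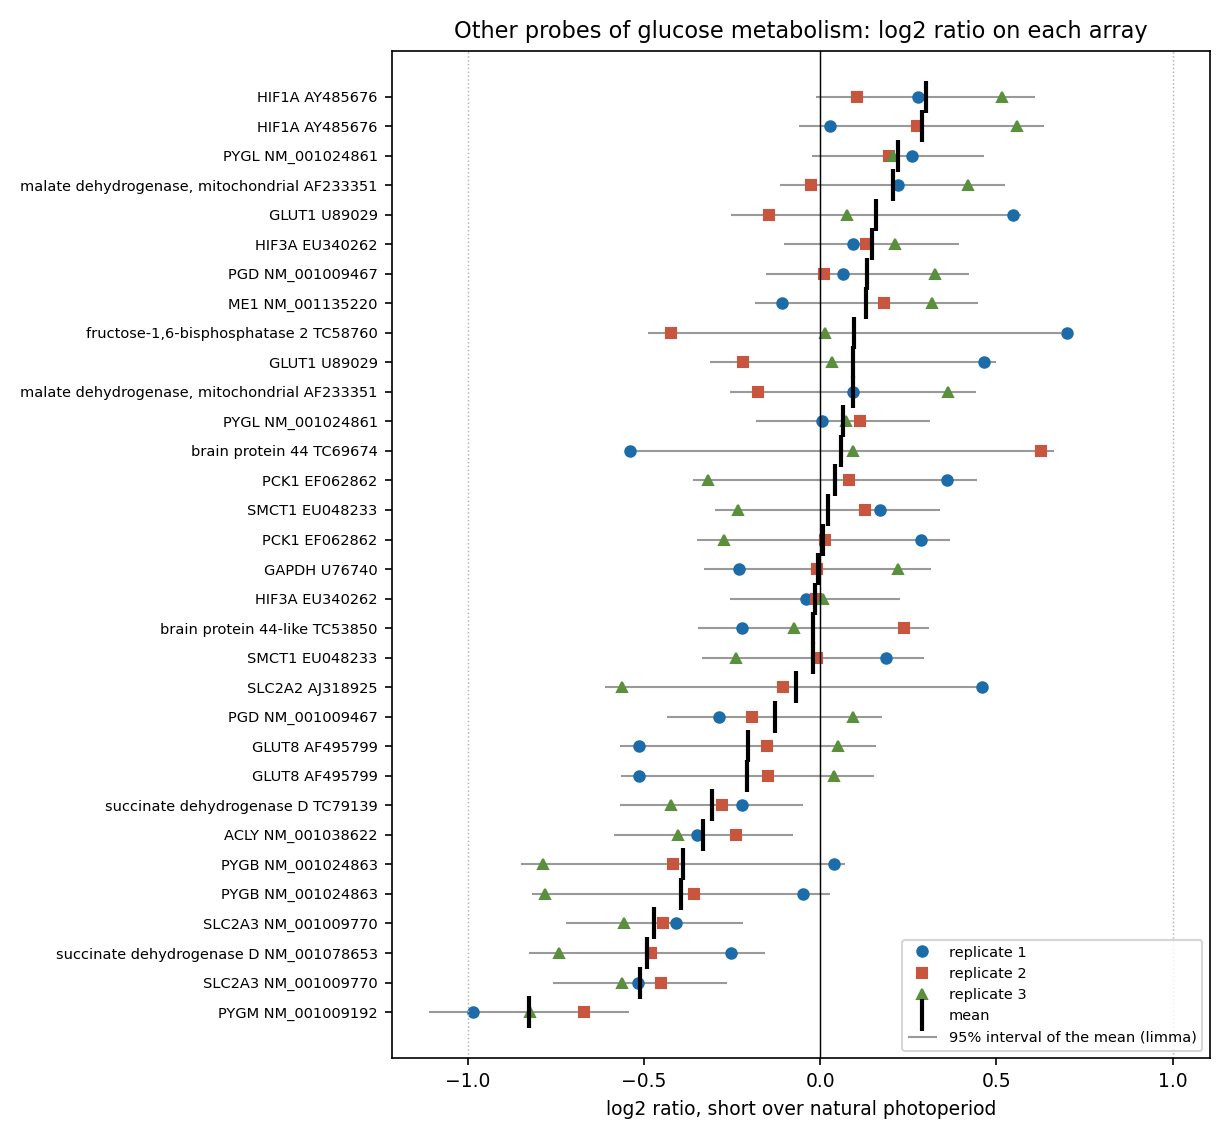
Log2 ratio of the short over the natural photoperiod (horizontal axis) for probes of the wider list and the 8 probes added after the values were seen (rows, ordered by mean), with 1 point per array, a bar at the mean and a line for limma's 95% interval. The HIF1A probes are the highest at 0.30 and 0.29, and muscle glycogen phosphorylase, PYGM, is the lowest at -0.83.

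Markers of several cell types in skin were compared between the groups beside these values. None of their tested probes passed an adjusted p of 0.05 in limma, the lowest being 0.155. The keratins KRT14, KRT27, KRT34 and KRT85, which mark epidermis and follicle, were above background in every goat. The 5 tested probes of the epidermis and follicle list, which had 6 of its 12 genes on the array, all had means above 0 with a median of 1.19. Their summed level over the 4 probes with a value on every array, on a linear scale, was 289569 to 293957 in the short photoperiod goats and 122505 to 169890 in the natural goats. Of the 12 leukocyte probes, from 6 of 11 genes, 11 had means below 0 with a median of -0.36. All but the CD4 probes, 10 in number, were above background in every goat. The summed level of the 12 probes was 111040 to 141894 in the short photoperiod goats and 160278 to 191703 in the natural goats. The 3 endothelial probes, from 2 of 4 genes, all had means below 0, with a median of -0.66 and sums of 14526 to 15997 against 19004 to 25176. The 2 SELE probes gave -0.66 and -1.03, while VWF gave -0.21 with overlapping groups (limma adjusted p = 0.409). KRT27, KRT34, KRT85 and SELE are among the genes that the paper lists as changed on these same arrays. Their values here are thus no independent measure of cell content. The part of these cell types in the ratios of pyruvate kinase, lactate dehydrogenase A, SLC2A3 or succinate dehydrogenase was not tested. Skeletal muscle, a tissue rich in glycolytic enzymes, had 4 of 18 genes on the array, with a median of -0.06 over 6 probes and sums of 11411 to 22953 against 9882 to 18341 that overlapped between the groups. The adipocyte list, with 4 of 7 genes, had a median of -0.33 over 7 probes and overlapping sums. The same held for the dermis list, with 3 of 5 genes and a median of -0.41 over 5 probes, for red blood cells, with 1 of 7 genes and -0.23, and for melanocytes, with 1 of 5 genes and -0.25.

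Most of the enzyme probes were above background, as were most probes of the array. Of the 15208 spots of an array, 13872 to 14328 passed Feature Extraction's test against background in Cy5 and 14193 to 14602 did so in Cy3, and 0 were saturated. The test was passed in both channels of all 3 arrays by 12 of the 13 enzyme probes and by 13464 of all 14977 tested probes. The exception among the enzyme probes was GAPDH NM_001190390, because of its flagged spot. Precision is limited by having 3 arrays.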

How the data were processed

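The authors deposited Feature Extraction output for each array, with the mean intensity of the spots and the median background intensity around them in both channels, not normalized. The files also hold the authors' processed intensity and its log10 ratio. The deposited value table holds log2 ratios, which equal those of the processed signals within 0.001 for 99.96% to 100% of 14958 probes with 1 spot.

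Ratios were computed with limma 3.58.1 in R 4.3.3, with normexp (offset 50), removal of control spots, and loess in which flagged spots had weight 0. The 38, 65 and 91 flagged spots were then removed and spots of a probe averaged. Probes with at least 2 arrays were tested by lmFit and eBayes against 0, with Benjamini-Hochberg adjustment over 14977 probes and a threshold of 0.05. This is a paired test, since the paper states that the goats compared shared a parent, and p-values measure the spread between the 3 pairs. Slide and scan were common to all arrays and gave no block. The study's methods give the fold rule of at least 2 or at most 0.5.

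The enzyme probes and the marker and pathway lists were chosen with earlier results of these data known. Named were the brightest probe of each step, the 5 highest and 5 lowest enzyme probes, every GAPDH and lactate dehydrogenase probe, probes of a named gene that differ in sign, and the 3 highest and 3 lowest of the wider list. Some probes that these rules name are not reported here, though counts over the lists include them. Others are marked as chosen after their values were seen. Alternatives concerned background correction, normalization, signal column, dim probes, flags, arrays left out, the test, the pairing and the lists. The sheep records had 0 matches in the goat annotation table used here, so genes are named as on the array, without coordinates. The test was checked on simulated ratios with changes larger than any mean of the enzyme probes, so the check does not cover changes of their size. Figures were drawn with matplotlib 3.10.9.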

Additional observations from a re-analysis of the deposited data

How the results depend on the processing

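Of the 13 enzyme probes, 7 were reversed under at least one alternative and 6 kept their direction, 5 of them under 14 alternatives and GAPDH NM_001190390 under the 9 that gave it a value. Median centring gave 1880 called probes in place of 1, 370 probes with a 2-fold change in place of 126, and 4 enzyme probes called. There the glycolysis median was 0.029, the IDH1 value 0.37 and their difference -0.35. It reversed IDH1 (0.37), transaldolase 1 (0.76), lactate dehydrogenase A (0.21), both U94718 GAPDH probes (0.59 and 0.50), hexokinase TC55766 (0.026), liver pyruvate kinase from base 264 (-0.29), GAPDH U76740 (0.85), ATP citrate lyase (0.11) and both succinate dehydrogenase probes (0.11 for TC79139 and 0.071). Loess removes the trend of the ratio with brightness and median centring keeps it, as the bin medians show. Feature Extraction's log ratio gave 5 called and 291 2-fold probes and a glycolysis median of -0.13. The authors' value table gave 14 and 474 and a glycolysis median of -0.13, and normexp without an offset gave 198 2-fold probes. The cause of these differences was not tested. Leaving out 1 array left 0 called probes in each case and 157 to 286 2-fold probes, and the enzyme probes called stayed at 0. Over these left-out arrays IDH1 ranged from -0.14 to 0.00049 (above 0 without replicate 1), GAPDH U76740 from -0.12 to 0.11 (above 0 without replicate 1), and the malate dehydrogenase probe from base 128 from -0.041 to 0.23 (below 0 without replicate 3). The separate channels with the replicate block (correlation within spots 0.619) gave 164 called probes, and the channels without the pairing gave 0, with 1113 at an unadjusted p under 0.05, and 0 enzyme probes were called either way. With succinate dehydrogenase in the cycle, glycolysis minus the cycle was 0.14. Leaving out cycle enzymes described as soluble or NADP+ dependent left 0 cycle probes, so this alternative gave no value.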

Other observations

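Glycogen phosphorylases, which release glucose-1-phosphate from glycogen ahead of glycolysis, lay outside the rule and were looked up after the values were seen. PYGM, the muscle form, had log2 levels of 10.70, 11.21 and 10.61 in the short photoperiod goats and 11.69, 11.89 and 11.43 in the natural goats. All short photoperiod goats lay below all natural goats, and the ratios of -0.98, -0.67 and -0.82 had a mean of -0.83 ± 0.16 (SD, n = 3), with a limma adjusted p of 0.155. This ratio is a 0.56-fold level with a 95% interval of 0.46 to 0.69. It is read by 5 spots on each array, whose SD was between 0.03 and 0.06, beside a median of 0.06 over the 50 probes with 5 spots. Of 14 alternatives, PYGM passed the threshold in 2. These were median centring (-0.89, limma adjusted p = 0.0344), when 12.6% of all probes passed, and the separate channel fit (limma adjusted p = 0.0435). Its adjusted p over the alternatives ranged up to 0.447. The 6 skeletal muscle probes had a median of -0.06, with 2 means above 0 and 4 below. MYLPF, a fast muscle myosin light chain, had the highest at 0.48 ± 0.28, with overlapping groups (limma adjusted p = 0.206). TNNC2 had -0.10 and -0.15 on its probes. PYGB, the brain form, had means of -0.39 and -0.40 on its 2 probes, with 0.04, -0.42 and -0.79 on the arrays for the former, and PYGL, the liver form, had 0.22 and 0.06 (limma adjusted p from 0.293 to 0.744).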
